A study of Mus musculus with 9 samples.

Results

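Glycolysis splits glucose into pyruvate in the cytosol, and its genes, together with those for glucose uptake, lactate handling and glycogen, are described here across mouse hearts of 3 groups. The genes were chosen by symbol, as 33 names of transporters, enzymes and regulators of the pathway. No level served as a criterion, though earlier results of these data were known when the choice was made. All 33 were found in the deposited table of 29237 genes, on 34 rows, because Aldoa has 2 rows. Of the 34 rows, 31 had a mean of at least 0.5 FPKM over the 9 libraries and were tested. FPKM counts sequenced fragments relative to transcript length and to the library's mapped total, so it can be compared between genes of a library, and between libraries as far as their totals have the same makeup.

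The TPTN group had 3 libraries, the DOX group, a doxorubicin model, had 3, and the Control group, called normal in the design text, had 3. All came from hearts of wild-type C57BL/6 mice of 8 to 12 weeks. Doxorubicin is an anthracycline cancer drug that can harm heart muscle, and TPTN is the name of the treatment as the labels spell it. Whether doxorubicin was given to the TPTN mice too is not in the labels, and neither is a dose, a day or the part of the heart taken. Replicates carry only a number and may be technical, and a p-value here can speak only of the spread among the libraries.

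The adult heart draws most of its energy from fatty acids and takes the rest from glucose, lactate and other fuels. Glucose enters through the insulin-responsive transporter Slc2a4 and the constant transporter Slc2a1, and is trapped as a phosphate by the hexokinases Hk1 and Hk2. It then passes down glycolysis, with phosphofructokinase (Pfkm, Pfkl, Pfkp) as the main controlled step, or into glycogen through Ugp2, Gys1 and Gbe1, from which the phosphorylases Pygm and Pygb release it again.

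The sequences that bear on the results come first. Hk2, both enolase genes and Tpi1 are the members whose promoters are printed, because they passed the test in a comparison. The bases are the 250 before the transcription start that RefSeq lists (GRCm38.p6, 5′ to 3′ on the gene's strand), for Hk2 at chr6:82774455-82774704 on the minus strand, for Eno3 at chr11:70656926-70657175 on the plus strand, for Eno1 at chr4:150236458-150236707 on the plus strand, the first of 3 starts listed, and for Tpi1 at chr6:124814159-124814408 on the minus strand. Capitals mark ACGTG on either strand, a form of the core of the hypoxia response element bound by HIF factors. The other form, GCGTG, was not searched and is not marked, though it occurs in the Eno1 stretch and, on the opposite strand, in the Eno3 stretch.
Hk2: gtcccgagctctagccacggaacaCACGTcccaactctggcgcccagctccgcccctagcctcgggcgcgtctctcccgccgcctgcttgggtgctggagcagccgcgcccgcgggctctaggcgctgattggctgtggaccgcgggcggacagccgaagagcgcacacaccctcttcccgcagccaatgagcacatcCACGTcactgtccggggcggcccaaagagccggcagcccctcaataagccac
Eno3: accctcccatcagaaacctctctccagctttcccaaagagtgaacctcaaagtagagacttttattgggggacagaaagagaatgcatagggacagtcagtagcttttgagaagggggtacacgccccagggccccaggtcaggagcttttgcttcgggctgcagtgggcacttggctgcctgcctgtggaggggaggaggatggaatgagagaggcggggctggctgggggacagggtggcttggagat
Eno1: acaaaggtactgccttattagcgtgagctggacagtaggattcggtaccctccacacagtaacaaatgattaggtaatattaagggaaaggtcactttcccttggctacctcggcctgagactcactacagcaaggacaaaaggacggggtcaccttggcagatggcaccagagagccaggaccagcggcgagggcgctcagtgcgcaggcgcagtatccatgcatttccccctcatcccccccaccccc
Tpi1: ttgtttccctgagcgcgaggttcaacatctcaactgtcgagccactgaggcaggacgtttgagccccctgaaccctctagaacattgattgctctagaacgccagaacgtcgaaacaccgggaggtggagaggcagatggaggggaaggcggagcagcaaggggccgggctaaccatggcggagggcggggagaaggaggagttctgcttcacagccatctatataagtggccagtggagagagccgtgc
The Hk2 stretch held 2 matches to ACGTG, and the Eno3, Eno1 and Tpi1 stretches held no match to ACGTG. Over windows of 300 bases around each start, ACGTG was present in 22 of the 50 windows of the 32 members that RefSeq's table covers (44.0%) and in 19.6% of all 32851 windows. The E-box CACGTG, which contains ACGTG, was in 5 member windows (10%, against 7.15% of all), and CTANNNNTAG, a pattern bound by MEF2 factors, was in 2 (4.0%, against 3.69% of all), both strands searched in each case. The printed Tpi1 stretch lies partly inside the Tpi1 gene as GENCODE places it (chr6:124810586-124814296), so in that annotation it is partly transcribed sequence. All these matches are descriptions of sequence, and binding was not measured.

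A second set of sequences shows what limits the reading of Gapdh, the enzyme that oxidises glyceraldehyde phosphate and a common reference gene. The mouse genome carries many processed pseudogenes of Gapdh. In the table, 97 other genes had at least 20% of their 31-base words in the Gapdh transcript, of which 94 are annotated as processed pseudogenes and 3 as protein-coding. The copy Gm5559, at chr5:95861714-95862715, differed from Gapdh at 1 of 1002 bases, and Gm12671, at chr4:91851668-91852669, at none. Bases 325 to 444 of that shared stretch are printed from the GENCODE M21 transcripts, with the base that differs in capitals (T385A, counted from the first shared base).
Gapdh: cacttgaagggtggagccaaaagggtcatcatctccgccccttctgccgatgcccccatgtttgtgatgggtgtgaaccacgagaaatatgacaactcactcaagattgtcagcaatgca
Gm5559: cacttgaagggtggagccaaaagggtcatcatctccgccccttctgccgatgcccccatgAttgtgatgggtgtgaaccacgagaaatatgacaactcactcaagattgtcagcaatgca
Gapdh itself was listed at only 17.5, 16.7 and 15.6 FPKM in TPTN hearts, 14.8, 18.9 and 19.2 FPKM in DOX hearts, and 11.6, 14.3 and 13.2 FPKM in Control hearts. Its 97 copies summed to 2595, 2747 and 2926 FPKM in TPTN, 2697, 3278 and 3292 FPKM in DOX, and 2478, 2235 and 2744 FPKM in Control. The Gapdh row thus held 0.467 to 0.671% of the summed FPKM of the gene and its copies, and 19 single copies were listed above it. A read from the shared stretch cannot be told from one of a copy without a base that differs, so the level of Gapdh is uncertain by that much. Whether the reads listed under the copies came from Gapdh was not tested.

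**Figure D1:**
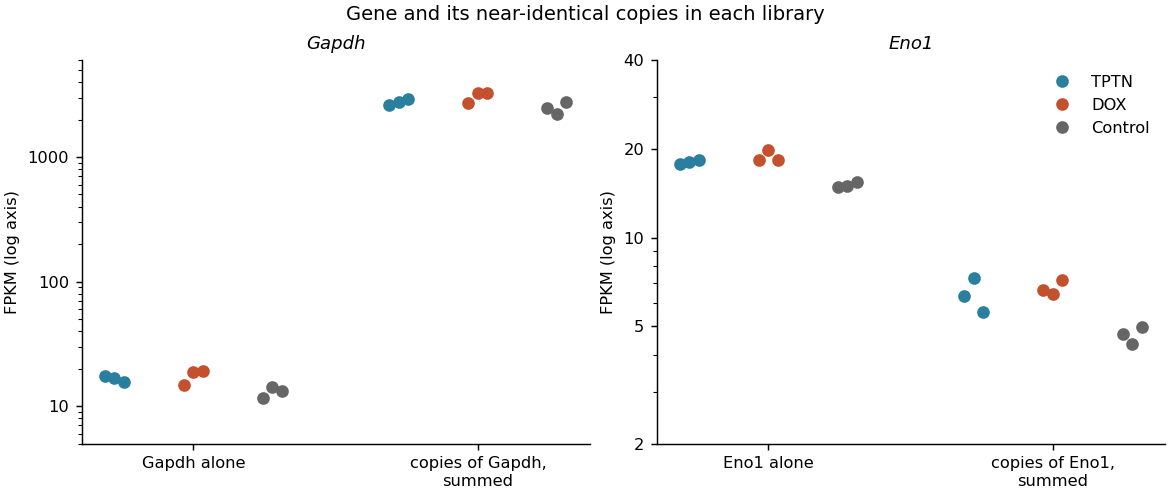
FPKM (log axes) of Gapdh and of Eno1 alone, and of their near-identical copies summed, in each of the 3 TPTN, 3 DOX and 3 Control libraries; each point is a library. The copies of Gapdh lie between 2235 and 3292 FPKM while Gapdh alone lies between 11.6 and 19.2, and the copies of Eno1 lie below Eno1.

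The other members were less affected. Of the 33 members, 11 shared more than 10% of their transcript's 31-base words with other genes, and the other 22 shared less than 2%. Eno1 shared 77.2%, mainly with the related Eno1b and the pseudogene Gm4735, yet its 4 copies summed to only 5.61 to 7.31 FPKM in TPTN, 6.44 to 7.16 FPKM in DOX and 4.34 to 4.97 FPKM in Control. Pgk1 shared 68.3%, Pkm 50.9%, Pgam1 42.1%, Ldhb 41.4% and Tpi1 18.2%, and each of these stood well above the sum of its copies. Hk1, Hk2, Eno3, Pgam2, Pfkm, Slc2a4, Ugp2 and Gys1 shared under 1%. The second row named Aldoa (chr7:126800790-126809108, next to the main Aldoa gene) was listed at 0 to 0.203 FPKM and is not used further.

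Muscle forms of the enzymes had the highest levels among the member rows as listed. Gapdh and its copies together held 2249 to 3311 FPKM over the 9 libraries, so the rank of Gapdh itself is uncertain. The highest means over the 9 libraries were those of Ldhb (641 FPKM), the lactate dehydrogenase subunit that prevails in heart, Eno3 (605 FPKM), the muscle enolase, Aldoa (595 FPKM), the muscle aldolase, and Pgam2 (436 FPKM), the muscle phosphoglycerate mutase. Pygm averaged 248 FPKM and Pfkm 208 FPKM. The lowest were Aldoc, the brain aldolase, at 0 to 0.0626 FPKM, the lactate exporter Slc16a3 at 0.175 to 0.383 FPKM, and Pfkfb4 at 0.188 to 0.628 FPKM. Slc16a3 and Aldoc fell below the filter and were not tested.

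**Figure D2:**
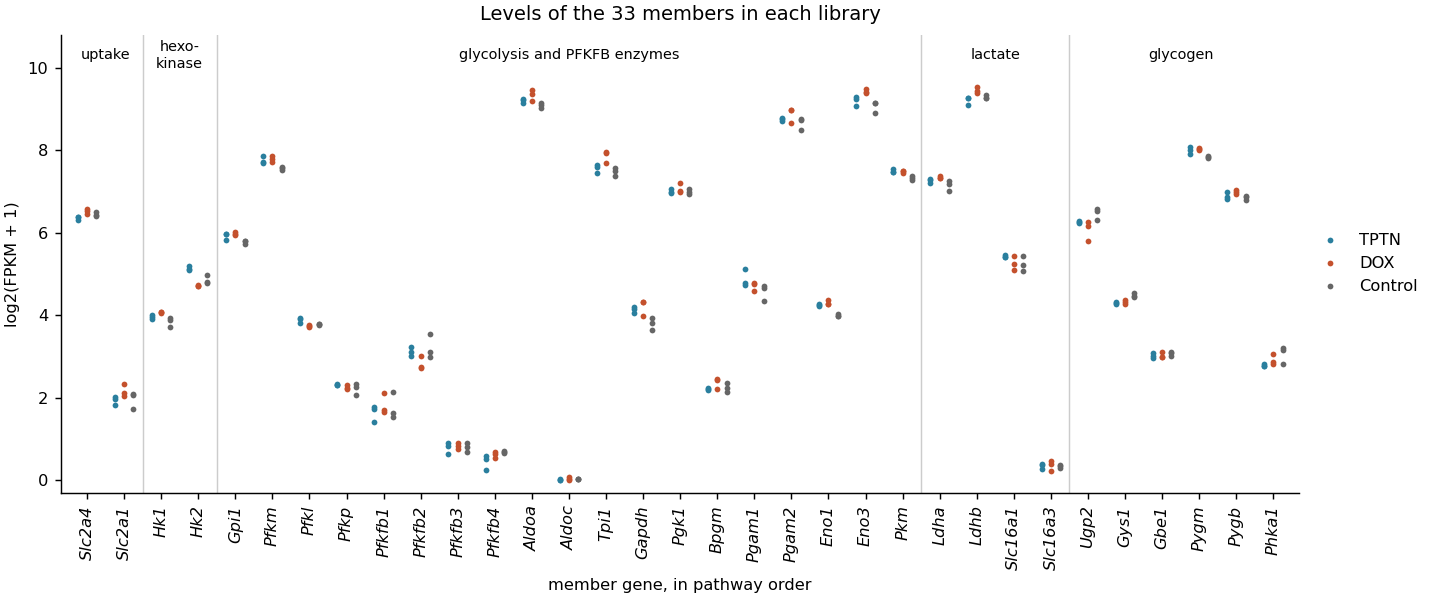
Level of each of the 33 members as log2(FPKM + 1), in pathway order, with the 3 libraries of TPTN, DOX and Control drawn side by side for each gene. Muscle forms such as Eno3, Aldoa and Pfkm stand far above their relatives in every library, and the groups differ little against the spread between genes.

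Across all 12500 genes tested, the test was limma's moderated test on log2(FPKM + 1), with Benjamini-Hochberg adjusted p under 0.05 as the threshold. The share of the FPKM sum in mitochondrial transcripts moved with the groups, at 48.1 to 48.7% in TPTN, 44.7 to 46.2% in DOX and 49.8 to 50.9% in Control, and it enters every FPKM through the library total. Scaling each library to the FPKM sum of all other genes (mitochondria-free scaling, which leaves out mitochondrial genes and 7 pseudogene copies of them) moved the median log2 change of all genes in DOX against Control to -0.07, against 0.04 as deposited, and turned the split of all calls to 61 higher and 209 lower, against 279 higher and 50 lower as deposited. In TPTN against DOX it gave 542 higher and 129 lower, against 99 and 308. Of the 93 log2 changes of members, 24 changed sign under that scaling, 10 in DOX against Control, 13 in TPTN against DOX and 1 in TPTN against Control, so the side on which a member lies below is that of the FPKM as deposited. Shares of one isozyme within a library are given as well, since a single factor per library leaves them as they are (quantile normalization does not). Atrial markers summed to 120, 121 and 53.5 FPKM in TPTN, 2556, 290.0 and 197 FPKM in DOX, and 94.7, 52.2 and 148 FPKM in Control. Every DOX library thus lay above every TPTN and Control library, with DOX replicate 1 far above the rest. No atrial marker passed the test in any comparison. Small nuclear and nucleolar RNA was highest in TPTN replicate 1 and Control replicate 3. Cardiomyocyte markers summed to 12415 to 12668 FPKM in TPTN, 11987 to 13522 FPKM in DOX and 10923 to 11996 FPKM in Control, and of the 8 markers Myl2 and Tnni3 rose and Ryr2 fell in DOX against Control. The 10 of 11 skeletal muscle markers found in the table summed to 16.5 to 18.1 FPKM in TPTN, 16.2 to 17.5 FPKM in DOX and 18.2 to 23.9 FPKM in Control, with Myh1, Myh2, Actn3 and Mybpc1 under 0.1 FPKM in every library. The 6 neutrophil markers summed to 0.494 to 0.541 FPKM in TPTN, 1.31 to 4.04 FPKM in DOX and 4.78 to 12.2 FPKM in Control, with Ly6g under 0.1 FPKM throughout, and the 7 adipocyte markers to 20.1 to 23.8 FPKM in TPTN, 26.3 to 36.6 FPKM in DOX and 27.7 to 39.0 FPKM in Control, with Plin1, Retn and Lep under 0.1 FPKM. The 8 erythroid markers summed to 447 to 604 FPKM in TPTN, 331 to 971 FPKM in DOX and 396 to 945 FPKM in Control. The 6 endothelial markers summed to 104 to 123 FPKM in TPTN, 106 to 113 FPKM in DOX and 98.9 to 110 FPKM in Control. Of these 6 only Kdr was called, higher in TPTN against DOX and against Control. The part of these cell types in the results was not tested. In heart tissue, fewer cells of a type and less RNA per cell cannot be told apart.

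DOX against Control asks how the pathway stood in the doxorubicin model. In DOX hearts 3 members rose, all of them enzymes of the part of glycolysis after the six-carbon sugar is split: Tpi1, which interconverts the triose phosphates, and the enolases Eno3 and Eno1. None fell. Of all genes tested, 2.23% were called higher and 0.4% lower, beside 3 and 0 of 31 members. Calls at an unadjusted p under 0.05 numbered 15 among the members, 12 higher and 3 lower, beside 14.6% higher and 3.47% lower of all genes tested.

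Eno3, at chr11:70657202-70662513, had 668, 714 and 682 FPKM in DOX hearts, against 562, 478 and 568 FPKM in Control hearts. All 3 DOX values lay above all 3 Control values. The log2 change was 0.36 (SE 0.08, limma adjusted p = 0.0452). Tpi1, at chr6:124810586-124814296, had 207, 249 and 244 FPKM in DOX hearts, against 179, 164 and 190.3 FPKM in Control hearts, again with no overlap. Its log2 change was 0.38 (SE 0.09, limma adjusted p = 0.0470). Eno1, at chr4:150236721-150248879 and the enolase found in most tissues, had 18.4, 19.8 and 18.4 FPKM in DOX hearts, against 14.8, 14.9 and 15.4 FPKM in Control hearts. The Eno1 groups were the tightest of these, with a log2 change of 0.31 (SE 0.06, limma adjusted p = 0.0278), and 0.36 with its copies added (limma adjusted p = 0.0171).

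These 3 calls stood close to the threshold. The log2 change stayed positive in every alternative run, at 0.15 to 0.36 for Eno1, 0.20 to 0.41 for Eno3 and 0.22 to 0.47 for Tpi1. None of the 3 passed the threshold when only the 6 libraries compared were fitted, under median ratio, quantile or mitochondria-free scaling, or without Control replicate 1, 2 or 3 or DOX replicate 2 or 3. Tpi1 also missed it without any one of the TPTN libraries, which enter the shared estimate of spread, and Eno3 without TPTN replicate 2 or 3. Without DOX replicate 1, the library with the highest atrial markers, Eno1, Tpi1, Gapdh and Aldoa passed and Eno3 did not.

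Gapdh had the highest log2 change among the 31 tested members in DOX against Control, at 0.40 (SE 0.11, limma adjusted p = 0.0733), and did not pass the test. With its copies added, the change was 0.31 (SE 0.10, limma adjusted p = 0.112). Other members of the trunk of glycolysis lay above Control in all 3 DOX libraries without passing. Hk1, the hexokinase of most tissues, had 15.6, 16.1 and 15.8 FPKM in DOX hearts, against 13.7, 12.1 and 14.2 FPKM in Control hearts, a log2 change of 0.23 (SE 0.07, limma adjusted p = 0.106). Pfkm, the muscle phosphofructokinase, had 230.4, 209 and 219 FPKM in DOX hearts, against 191, 183 and 193 FPKM in Control hearts (log2 change 0.21, SE 0.07, limma adjusted p = 0.117). Aldoa averaged 650.2 ± 62.9 FPKM in DOX hearts and 546 ± 20.6 FPKM in Control hearts (SD, n = 3 each), and Gpi1, which turns glucose phosphate into fructose phosphate, averaged 62.3 ± 1.22 FPKM in DOX hearts and 53.9 ± 1.79 FPKM in Control hearts. Pkm, the pyruvate kinase of muscle, averaged 179 ± 4.04 FPKM in DOX and 159 ± 5.29 FPKM in Control. Pgk1 averaged 135 ± 11.3 FPKM in DOX and 127 ± 4.69 FPKM in Control, with overlapping groups. Bpgm, which makes bisphosphoglycerate and is best known from red cells, averaged 4.17 ± 0.443 FPKM in DOX and 3.78 ± 0.370 FPKM in Control, also overlapping. Pgam2 averaged 472 ± 56.9 FPKM in DOX and 407 ± 42.5 FPKM in Control, and Pgam1, the mutase of most tissues, had 23.1 to 26.7 FPKM in DOX and 19.3 to 25.2 FPKM in Control, each with overlap. Of the lesser phosphofructokinases, Pfkl averaged 12.4 ± 0.225 FPKM in DOX and 12.8 ± 0.0973 FPKM in Control, and Pfkp 3.79 ± 0.175 FPKM in DOX and 3.71 ± 0.447 FPKM in Control.

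In total, the DOX and Control libraries did not overlap in 13 members that were higher in DOX and 4 that were lower. That is 41.9% and 12.9% of the 31 members, beside 17.7% and 5.1% of all genes tested. The median log2 change of the members was 0.14, beside 0.04 for all genes, and 23 of the 31 were positive. Under the mitochondria-free scaling the members' median was -0.02, beside -0.07 for all genes, and 13 of the 31 were positive. The 10 that turned negative were Bpgm, Ldhb (-0.01, against 0.16 as deposited), Pfkfb1, Pfkfb3, Pfkp, Pgam1, Pgk1, Pygb (-0.02, against 0.14), Slc16a1 and Slc2a4 (-0.10, against 0.07). Under quantile normalization it was 0.01, beside -0.01. So the sign of the members' median depended on the scaling, while the members stood 0.02 to 0.09 above the median of all genes under the 4 scalings.

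**Figure D3:**
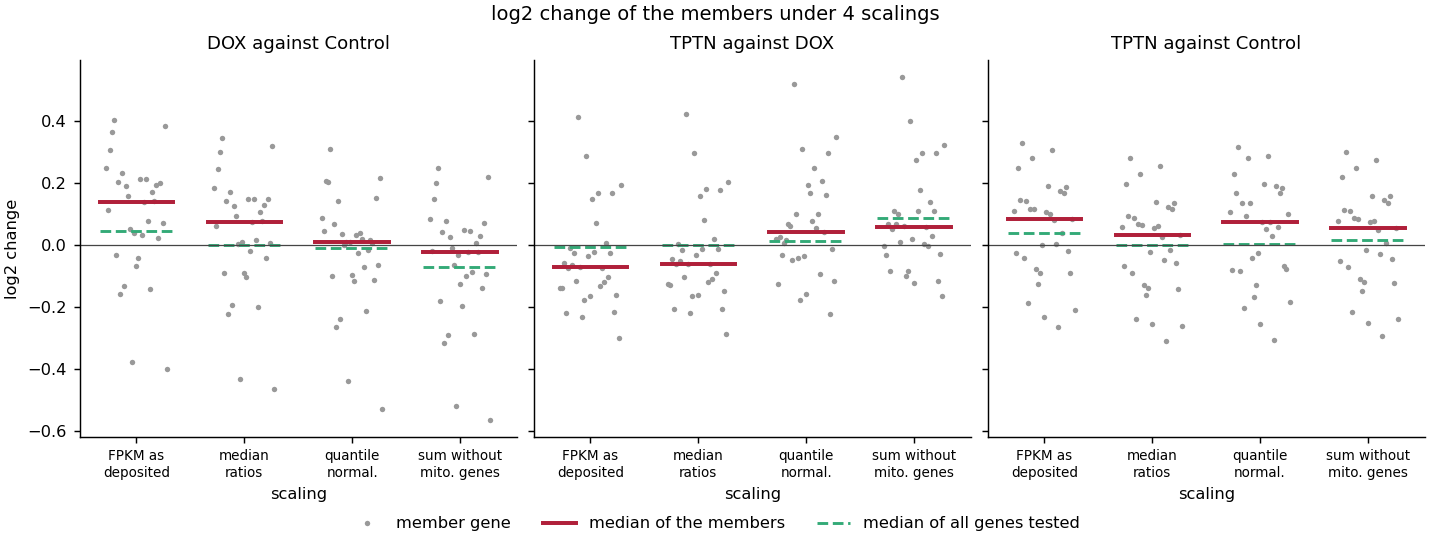
log2 change of each tested member (grey points) in each comparison under 4 scalings, with the median of the members (solid line) and of all 12500 genes tested (dashed line). In DOX against Control the members' median is 0.14 with FPKM as deposited and -0.02 with the sum without mitochondrial genes, and in TPTN against DOX it is -0.07 and 0.06.

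The 4 members that lay below every Control library in DOX hearts were Ugp2, Gys1, Hk2 and Pfkl. Ugp2, which makes the UDP-glucose that glycogen is built from, averaged 66.9 ± 10.9 FPKM in DOX hearts and 88.1 ± 8.48 FPKM in Control hearts (SD, n = 3 each). The groups did not overlap and the log2 change was -0.40 (SE 0.11, limma adjusted p = 0.0930). Ugp2 passed the threshold under the mitochondria-free scaling and under quantile normalization. Gys1, the glycogen synthase of muscle, had 19.9, 18.3 and 19.0 FPKM in DOX hearts, against 21.1, 22.3 and 20.8 FPKM in Control hearts, a log2 change of -0.16 (SE 0.06, limma adjusted p = 0.190), and it passed under the mitochondria-free scaling. Pygm, the muscle phosphorylase that breaks glycogen down, had 263, 255 and 264 FPKM in DOX hearts, against 231, 225 and 227 FPKM in Control hearts, a log2 change of 0.19 (SE 0.06, limma adjusted p = 0.114). Pygb, the brain form, averaged 127 ± 5.01 FPKM in DOX and 115 ± 4.08 FPKM in Control. Gbe1, the branching enzyme, averaged 7.21 ± 0.405 FPKM in DOX and 7.40 ± 0.324 FPKM in Control, and Phka1, the muscle regulatory subunit of phosphorylase kinase, 6.58 ± 0.668 FPKM in DOX and 7.41 ± 1.18 FPKM in Control, both with overlap.

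Synthesis and breakdown of glycogen can be set against each other within a library, by ratios chosen after the values were seen. The ratio of Gys1 to Pygm was 0.0757, 0.0718 and 0.0722 in DOX hearts, against 0.0916, 0.0993 and 0.0917 in Control hearts. It was 0.0766, 0.0738 and 0.0690 in TPTN hearts, which overlapped DOX and lay below every Control library. The ratio of Ugp2 to Pygm averaged 0.297 ± 0.0224 in TPTN hearts, 0.258 ± 0.0450 in DOX hearts and 0.387 ± 0.0359 in Control hearts (SD, n = 3 each). Here too every TPTN and every DOX library lay below every Control library. In both groups Gys1 and Ugp2 lay below every Control library and Pygm above every one. That the ratios lay below Control thus followed from the single genes and is no further evidence.

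Of the PFKFB enzymes, which make and break down the fructose bisphosphate that activates phosphofructokinase, Pfkfb2, the form that heart is known for, was the most abundant. It had 7.15, 5.64 and 5.76 FPKM in DOX hearts, against 7.60, 7.02 and 10.6 FPKM in Control hearts. DOX replicate 1 lay inside the Control range, and the log2 change was -0.38 (SE 0.14, limma adjusted p = 0.184). Pfkfb1, the form known from liver and muscle, had 3.31, 2.14 and 2.29 FPKM in DOX hearts, against 2.11, 3.45 and 1.89 FPKM in Control hearts. Pfkfb3, the inducible form, had 0.782, 0.862 and 0.705 FPKM in DOX hearts, against 0.741, 0.605 and 0.875 FPKM in Control hearts. Both overlapped. Pfkfb4 averaged 0.537 ± 0.0787 FPKM in DOX hearts and 0.610 ± 0.0171 FPKM in Control hearts, with overlap.

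No uptake or lactate gene passed the test in DOX hearts. Slc2a4 had 86.6, 94.7 and 91.7 FPKM in DOX hearts, against 84.5, 89.9 and 85.5 FPKM in Control hearts, and Slc2a1 had 4.07, 3.10 and 3.31 FPKM in DOX hearts, against 2.31, 3.23 and 3.24 FPKM in Control hearts, with overlap in both. Ldha, the lactate dehydrogenase subunit of skeletal muscle, averaged 161 ± 3.72 FPKM in DOX and 142 ± 11.9 FPKM in Control, and Ldhb 700.2 ± 40.1 FPKM in DOX and 628 ± 16.9 FPKM in Control, without overlap and without passing the test. The lactate and pyruvate carrier Slc16a1 averaged 37.5 ± 4.38 FPKM in DOX and 37.0 ± 4.74 FPKM in Control. Hk2, the insulin-responsive hexokinase of muscle, had 25.9, 25.3 and 25.3 FPKM in DOX hearts, against 26.6, 27.2 and 30.4 FPKM in Control hearts. All 3 DOX values lay below Control, with a log2 change of -0.13 (SE 0.07, limma adjusted p = 0.342).

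TPTN against DOX asks how hearts of the treated group stood against the model. Hk2 was the one member past the threshold. It had 33.1, 33.8 and 35.9 FPKM in TPTN hearts, against 25.9, 25.3 and 25.3 FPKM in DOX hearts, so that the lowest TPTN library stood above the highest DOX library. Hk2 (chr6:82725025-82774454) thus rose, with a log2 change of 0.41 (SE 0.07, limma adjusted p = 0.0195). Among all genes 0.792% were called higher and 2.46% lower, beside 1 and 0 of 31 members. At an unadjusted p under 0.05 there were 2 members higher and 4 lower, beside 7.78% higher and 12.9% lower of all genes tested. The change of Hk2 lay between 0.38 and 0.54 in every alternative run, and it kept its call under each scaling and when only the 6 libraries compared were fitted. It missed the threshold with no filter on low values and without DOX replicate 2 or 3 or TPTN replicate 1, 2 or 3, with limma adjusted p of 0.0505 to 0.115.

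Hk1, the other hexokinase, did not pass the test. It had 14.0, 15.1 and 14.6 FPKM in TPTN hearts, against 15.6, 16.1 and 15.8 FPKM in DOX hearts, a log2 change of -0.12 as deposited and of 0.01 under the mitochondria-free scaling. The share of Hk2 in the sum of Hk1 and Hk2 was therefore the clearest isozyme contrast. It was 70.3, 69.2 and 71.1% in TPTN hearts, against 62.4, 61.1 and 61.6% in DOX hearts, and 66.0, 69.2 and 68.1% in Control hearts. The DOX libraries lay below every library of the other groups, and the TPTN libraries lay above Control, by 0.0197 percentage points at the nearest pair. Leaving out any library kept the difference between TPTN and DOX at 8.07 to 9.01 percentage points and that between DOX and Control at -6.95 to -5.36 percentage points. In both of these comparisons Hk1 and Hk2 as deposited lay apart in opposite directions. The differences in share thus followed from the single genes and are no further evidence.

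Most other members lay lower in TPTN than in DOX hearts, and none of these passed. Tpi1 had 175, 192 and 198 FPKM in TPTN hearts, against 207, 249 and 244 FPKM in DOX hearts, a log2 change of -0.30 (SE 0.09, limma adjusted p = 0.0892). Eno3 had 542, 604 and 630.1 FPKM in TPTN hearts, against 668, 714 and 682 FPKM in DOX hearts (log2 change -0.22, SE 0.08, limma adjusted p = 0.162). Ldhb averaged 596 ± 38.9 FPKM in TPTN hearts and 700.2 ± 40.1 FPKM in DOX hearts, a log2 change of -0.23 (SE 0.07, limma adjusted p = 0.0880). Slc2a4 had 78.8, 82.7 and 82.3 FPKM in TPTN hearts, against 86.6, 94.7 and 91.7 FPKM in DOX hearts (log2 change -0.16, SE 0.06, limma adjusted p = 0.160). In these 4 genes the TPTN and DOX libraries did not overlap. Eno1 had 17.8, 18.1 and 18.3 FPKM in TPTN hearts, against 18.4, 19.8 and 18.4 FPKM in DOX hearts, values that lay next to each other. Pfkl, the liver phosphofructokinase, was among the few on the other side, at 13.8 ± 0.614 FPKM in TPTN and 12.4 ± 0.225 FPKM in DOX, a log2 change of 0.15 (SE 0.06, limma adjusted p = 0.185), and it passed under the mitochondria-free scaling. Pfkfb2 had 7.08, 7.64 and 8.48 FPKM in TPTN hearts, against 7.15, 5.64 and 5.76 FPKM in DOX hearts, with overlap.

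In total 3 members were higher and 9 lower in TPTN than in DOX with no overlap between the libraries. These are 9.68% and 29.0% of the members, beside 10.4% and 14.1% of all genes tested. The median log2 change of the members was -0.07, beside -0.01 for all genes, with 23 of 31 negative. Under the mitochondria-free scaling it was 0.06, beside 0.08 for all genes, with 10 of 31 negative, and under quantile normalization 0.04, beside 0.01. The count of members lower in TPTN therefore depended on the scaling, which the log2 changes of Tpi1, Eno3, Ldhb and Slc2a4 survived in sign, at -0.12, -0.03, -0.04 and -0.01 nearest to 0. The comparisons of TPTN with DOX and of DOX with Control share the DOX libraries.

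**Figure D4:**
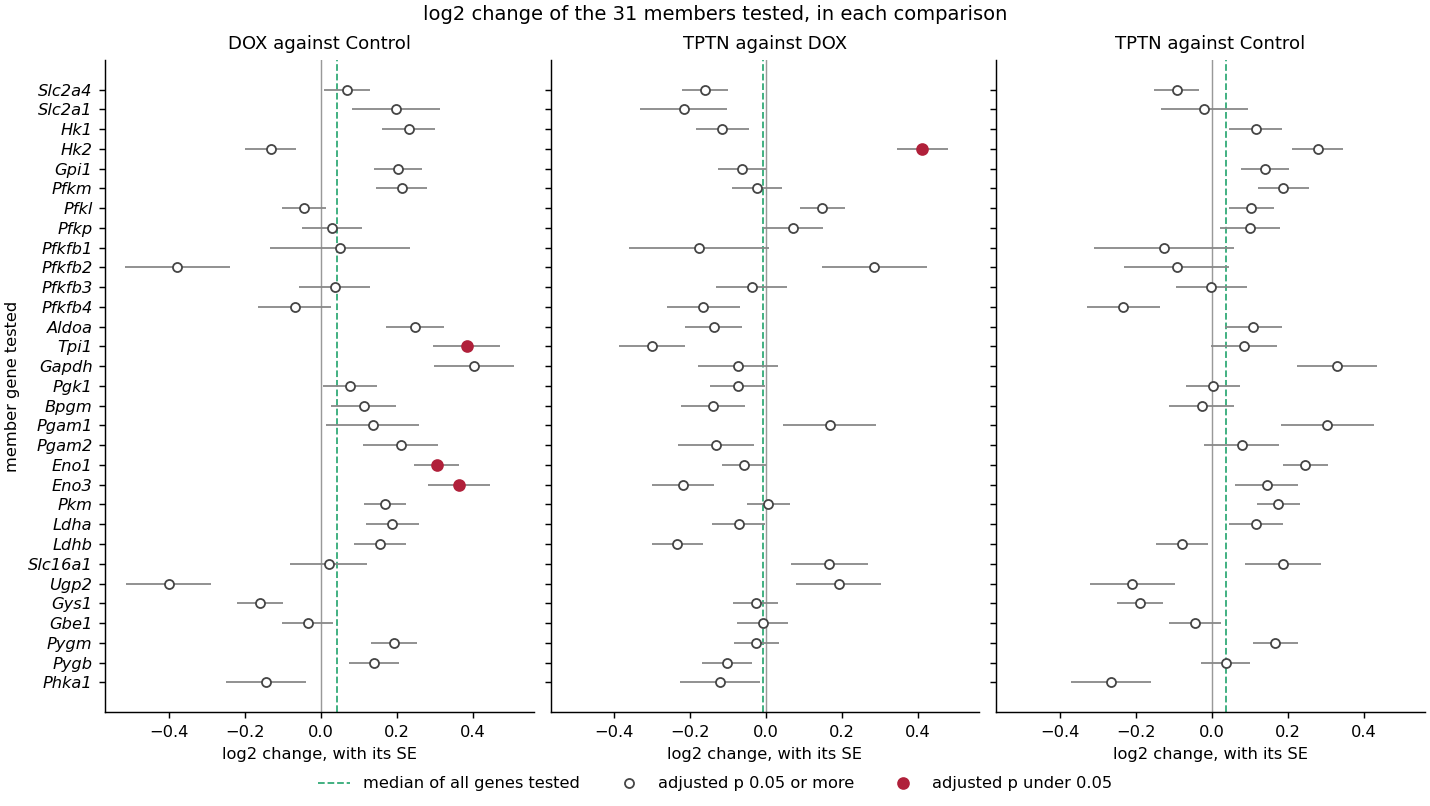
log2 change of each of the 31 tested members on the log2(FPKM + 1) scale, with its SE, for DOX against Control, TPTN against DOX and TPTN against Control; filled points have a limma adjusted p under 0.05 and the dashed line is the median of all genes tested. Tpi1, Eno1 and Eno3 are filled in the first panel, Hk2 in the second and none in the third.

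TPTN against Control gave no call among the members in limma, beside 0.336% of all genes called higher and 0.384% lower. At an unadjusted p under 0.05 there were 11 members, 8 higher and 3 lower, beside 9.02% higher and 4.12% lower of all genes tested. The smallest adjusted p-values were those of Eno1 and Hk2. Eno1 had 17.8, 18.1 and 18.3 FPKM in TPTN hearts, against 14.8, 14.9 and 15.4 FPKM in Control hearts, a log2 change of 0.25 (SE 0.06, limma adjusted p = 0.0920). Hk2 had 33.1, 33.8 and 35.9 FPKM in TPTN hearts, against 26.6, 27.2 and 30.4 FPKM in Control hearts, a log2 change of 0.28 (SE 0.07, limma adjusted p = 0.0943). In neither gene did the libraries overlap. Gapdh followed with 0.33 (SE 0.11, limma adjusted p = 0.208), which became 0.15 with its copies added.

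Gys1 was the clearest member on the low side. It had 18.4, 18.9 and 18.7 FPKM in TPTN hearts, against 21.1, 22.3 and 20.8 FPKM in Control hearts, a log2 change of -0.19 (SE 0.06, limma adjusted p = 0.208). Pygm had 240.5, 256 and 271 FPKM in TPTN hearts, against 231, 225 and 227 FPKM in Control hearts. Pfkm had 209, 207 and 233 FPKM in TPTN hearts, against 191, 183 and 193 FPKM in Control hearts. Both sets were apart without passing the test. Ugp2 averaged 75.9 ± 1.64 FPKM in TPTN hearts and 88.1 ± 8.48 FPKM in Control hearts, and Phka1 5.96 ± 0.144 FPKM in TPTN hearts and 7.41 ± 1.18 FPKM in Control hearts, with a log2 change of -0.26 (SE 0.10, limma adjusted p = 0.312). Pgam1 averaged 28.7 ± 4.42 FPKM in TPTN hearts and 23.0 ± 3.24 FPKM in Control hearts, and Pfkp, the platelet phosphofructokinase, 4.03 ± 0.0580 FPKM in TPTN hearts and 3.71 ± 0.447 FPKM in Control hearts. Slc2a4 lay below Control in all 3 TPTN libraries, while Slc2a1, at 2.56, 3.04 and 2.96 FPKM in TPTN hearts, against 2.31, 3.23 and 3.24 FPKM in Control hearts, overlapped. Pfkfb1 had 2.45, 1.66 and 2.35 FPKM in TPTN hearts and Pfkfb3 had 0.552, 0.886 and 0.788 FPKM in TPTN hearts, both overlapping Control. Pfkfb4 averaged 0.378 ± 0.171 FPKM in TPTN hearts and 0.610 ± 0.0171 FPKM in Control hearts, with no overlap.

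Between TPTN and Control, 9 members were higher and 4 lower with no overlap, which are 29.0% and 12.9% of the members, beside 15.2% and 6.03% of all genes tested. The members' median log2 change was 0.08, beside 0.04 for all genes. It stayed positive under the 3 other scalings, at 0.03 to 0.07, beside at most 0.01 for all genes.

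The remaining isozyme pairs kept their order in every library. Muscle forms prevailed throughout, and Eno1 made up 2.97 ± 0.183% of the enolase sum in TPTN hearts, 2.66 ± 0.0370% in DOX hearts and 2.74 ± 0.243% in Control hearts (SD, n = 3 each), so that the rise of both enolases in DOX left their proportion within the Control range. Pgam1 made up 6.26 ± 0.766% of its pair with Pgam2 in TPTN, 5.14 ± 0.831% in DOX and 5.34 ± 0.198% in Control. Every TPTN library lay above every DOX library in the Eno1 share, and above every Control library in the Pgam1 share. Slc2a1 made up 3.39 ± 0.211% of its pair with Slc2a4 in TPTN, 3.72 ± 0.688% in DOX and 3.26 ± 0.527% in Control. Slc16a3 made up under 1.13% of its pair with Slc16a1 in all libraries but DOX replicate 1, which held 1.13%. Aldoc was at or near 0 beside Aldoa in every library.

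Further shifts showed in the other families. The share of Pfkl and Pfkp in the phosphofructokinase sum was 7.60, 8.19 and 7.17% in TPTN hearts, against 6.53, 7.14 and 6.93% in DOX hearts, and 8.08, 8.01 and 7.96% in Control hearts. DOX lay below both other groups in every library, by 0.0231 percentage points at its nearest to TPTN. Ldha made up 20.5 ± 0.578% of the lactate dehydrogenase sum in TPTN hearts, 18.7 ± 0.994% in DOX hearts and 18.4 ± 1.18% in Control hearts (SD, n = 3 each), and TPTN stood above every library of the other groups. Pfkfb2 made up 69.0, 71.3 and 70.4% of the PFKFB sum in TPTN hearts and 60.6, 62.0 and 61.5% in DOX hearts, and 68.6, 60.1 and 76.0% in Control hearts, whose spread covers both. Pygb made up 31.5 ± 0.355% of the phosphorylase sum in TPTN, 32.7 ± 0.548% in DOX and 33.5 ± 1.03% in Control.

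**Figure D5:**
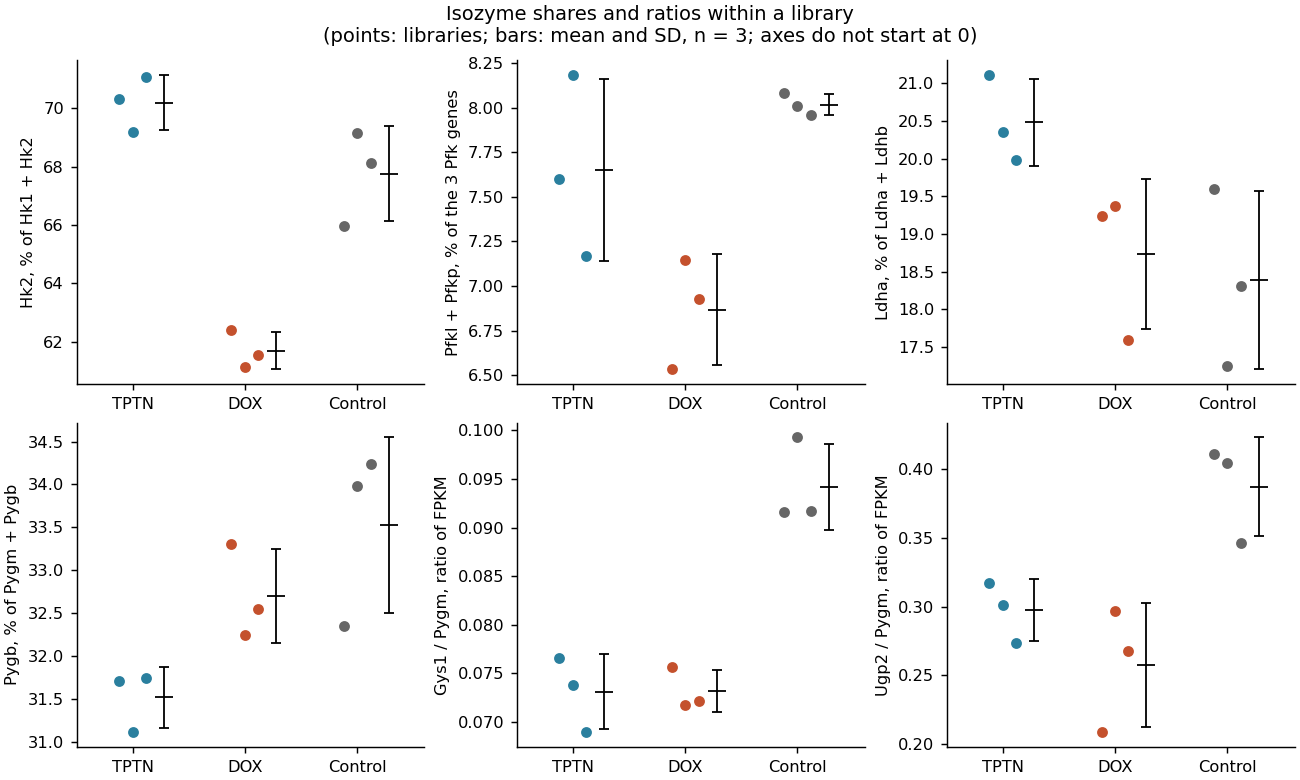
Share of an isozyme in its family's FPKM (percent) and 2 ratios of FPKM between glycogen genes, for the 3 libraries of TPTN, DOX and Control, with mean and SD (n = 3); the axes do not start at 0. The Hk2 share is 61.1 to 62.4% in DOX hearts and 66.0 to 71.1% in the other libraries. Gys1 over Pygm is below Control in every TPTN and DOX library, which follows from the levels of the 2 genes.

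Around the members, 6 lists of other genes of glucose use hold 68 genes, of which 53 were tested. In DOX against Control 1 of the 53 passed upwards and 1 downwards, beside 2.23% and 0.4% of all genes tested. In TPTN against DOX it was 1 upwards and 2 downwards, beside 0.792% and 2.46%. In TPTN against Control it was 0 upwards and 2 downwards, beside 0.336% and 0.384%. These counts are too small to set the lists apart from all genes. Ppp1r3a, the muscle subunit that tethers protein phosphatase to glycogen and promotes synthesis, averaged 9.42 ± 0.346 FPKM in TPTN hearts, 9.96 ± 1.03 FPKM in DOX hearts and 13.7 ± 1.02 FPKM in Control hearts (SD, n = 3 each). It fell in DOX against Control (log2 change -0.43, SE 0.08, limma adjusted p = 0.0294) and in TPTN against Control (log2 change -0.50, SE 0.08, limma adjusted p = 0.0264). Among the 19 other glycogen genes tested it was the only call in these comparisons. Their median log2 change was 0.02 in DOX against Control and 0.03 in TPTN against Control. Gys1 also stood below Control in both groups, without passing the test with FPKM as deposited.

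The other genes called were regulators of glucose use. Irs2, an insulin receptor substrate, rose in DOX against Control (log2 change 0.65, SE 0.14, limma adjusted p = 0.0436) and fell in TPTN against DOX (log2 change -0.78, SE 0.14, limma adjusted p = 0.0242). Klf15, a factor known for inducing Slc2a4 in muscle, had 6.16, 6.46 and 5.30 FPKM in TPTN hearts, 9.82, 9.80 and 7.33 FPKM in DOX hearts and 11.3, 11.3 and 12.9 FPKM in Control hearts, and fell in TPTN against both DOX (log2 change -0.51, SE 0.11, limma adjusted p = 0.0364) and Control (log2 change -0.88, SE 0.11, limma adjusted p = 0.00819). Mlxipl, the carbohydrate response factor ChREBP, rose in TPTN against DOX (log2 change 0.35, SE 0.08, limma adjusted p = 0.0438). No gene of the lists of other glycolytic isozymes, other lactate and pyruvate carriers or the pentose phosphate pathway passed in any comparison. The 7 log2 changes called in Ppp1r3a, Irs2, Klf15 and Mlxipl kept their sign in every alternative run, and that of Klf15 in TPTN against Control kept its side of the threshold in 19 of 21 alternatives. The others each lost the threshold with single libraries left out: Ppp1r3a in DOX against Control without any Control library or DOX replicate 2 or 3, and in TPTN against Control without Control replicate 1 or 2 or any TPTN library; Irs2 in DOX against Control without any library but Control replicate 1, and in TPTN against DOX without DOX replicate 3 or any TPTN library. Klf15 in TPTN against DOX lost it without Control replicate 3, DOX replicate 1 or 2 or any TPTN library, and Mlxipl without any library but DOX replicate 1. Irs2 in DOX against Control passed under none of the 3 other scalings, Klf15 in TPTN against DOX not under the mitochondria-free one, and Mlxipl not under quantile normalization.

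In the authors' deposited table, which does not say which groups its test compared, the q-value was 0.0106 for Hk2, 0.0153 for Gapdh, 0.0296 for Eno1 and 0.0418 for Tpi1, and no other member was under 0.05. The authors' deposited table marks 9 members as significant, those 4 and Eno3, Ugp2, Pgam1, Hk1 and Pfkfb2, which are the members with a deposited p-value under 0.05.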

How the data were processed

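RNA from mouse heart was selected with oligo(dT), made into strand-marked libraries with dUTP and sequenced as paired reads, per the labels' protocols. The deposited values are FPKM per gene, and the deposited p-values and q-values come without named groups. The submitters' processing notes name cutadapt 1.9, HISAT2 2.0.4, StringTie 1.3.4d, DESeq2, edgeR and GRCm38, without saying which step each did. How reads with several matches were shared out is not given in the sources used here. FPKM divides by the library total, so abundant transcripts move all other values.

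Since the table holds no counts, the count model named in the design gave way to limma 3.58.1 (R 4.3.3), on log2(FPKM + 1) of genes with a mean of at least 0.5 FPKM, as one model with a mean per group, a mean-variance trend and robust estimation (6 residual degrees of freedom). A log2 change on this scale understates that of low genes. Depth is unknown: 9.48 to 13.2% of low values fell within 0.05 of whole multiples of a common unit, so counts were not recovered. The procedure was tested on simulated data. Members, gene lists and tests were chosen with earlier results of these data known. All 33 members are named, with values per library for those past the threshold and for the rate-setting steps, and other pathway genes are named where they passed, except that 1 gene is not reported here and is left out of the lists' counts. Shares, ratios and copies (31-base words of GENCODE M21 transcripts) were computed in Python 3.11.15 (numpy 2.4.6, pandas 2.3.3), and figures in matplotlib 3.10.9. Alternatives changed the fit, pseudocount, filter, scaling, threshold and the libraries used. A replicate number is shared between groups in the labels, and its libraries did not deviate together.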

Additional observations from a re-analysis of the deposited data

How the results depend on the processing

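The 31 log2 changes chosen to be followed (24 of members and 7 of Ppp1r3a, Irs2, Klf15 and Mlxipl) kept their sign in all 651 recomputations, and 524 of these kept their side of the threshold. This does not hold for all 93 log2 changes of members. Of those, 24 changed sign in the mitochondria-free sum, 18 with quantile normalization, 5 with median ratios and 0 to 7 when each library was left out. In DOX against Control the 3 member calls became 0 with only the 6 libraries compared, with the replicate block, with no filter, with median ratios, with an absolute log2 change of at least 0.5 and without Control replicate 3 and TPTN replicate 1 together (added after seeing the data). They became 1 with quantile normalization (Ugp2, lower) and 1 without robust estimation (Eno1), and 0 to 4 when each library was left out. Summing without mitochondrial genes gave 2 calls, both lower (Ugp2, Gys1). In TPTN against DOX the 1 call became 0 with no filter, with the minimum of 0.5 and without both libraries, 2 in the mitochondria-free sum (Hk2, Pfkl), and 0 to 2 when each library was left out. The threshold of the test accounts for the loss under the minimum change of 0.5, since no member reached it, and the cause of the other losses was not tested. The members' median in DOX against Control was 0.0956 with no filter, 0.0751 with median ratios, -0.0222 in the mitochondria-free sum and 0.0090 with quantile normalization, against 0.137. In TPTN against DOX it was 0.0579 in the mitochondria-free sum and 0.0428 with quantile normalization, against -0.0725. In TPTN against Control it was 0.0320 with median ratios, 0.140 without both libraries and 0.0430 to 0.117 when each library was left out, against 0.0845. Of the 30 isozyme differences, 11 changed sign over the left-out libraries, among them the Pfkfb2 share in TPTN against Control (-2.07 to 5.89 percentage points) and the Eno1 share in DOX against Control (-0.169 to 0.0582 percentage points). The replicate number did not pair the libraries, with correlations of same-numbered libraries from -0.26 to 0.02, and the block changed no other member count. With 3 libraries a group and unknown depth, small changes could not be told from none.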
